A study of Bos taurus with 88 samples.

Results

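Whole blood of 7 CL beef calves was compared at 72 h and at 48 h after birth. This used 14 of the 88 samples of the series, namely the 48 h and the 72 h sample of every CL calf. The samples were chosen by the breed and age given in their labels, and samples of the same calf were matched by the tag number of the calf. CL calves were the progenies of Charolais × Limousin cows mated to Aberdeen Angus or Charolais bulls, so CL is the cow type and the sire breed differed among calves. They stayed with the dam and suckled, and the first blood sample, at 0 h, was taken before colostrum intake. The series also holds LF calves, the progenies of Limousin × Friesian cows kept under similar management and with the same sire breeds. It further holds H calves, Holstein dairy calves that were separated from the dam and given colostrum by tube and teat. Their colostrum was fed as a set percentage of body weight, at the same level for all H calves. All were sampled at 0, 48, 72 and 168 h. All cows, in every group, had been vaccinated before calving against bovine herpesvirus 1 and against rotavirus, coronavirus and E. coli.

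A calf is born with almost no circulating antibody, since the bovine placenta does not pass immunoglobulin to the foetus. The gut absorbs colostral immunoglobulin only for about the first day, so both ages compared here lie after that window and before the calf makes much antibody of its own. Whole blood is a mixture of neutrophils, lymphocytes, monocytes, platelets and young red cells that still carry haemoglobin mRNA, and its RNA profile follows both the mixture and the activity within each cell type. In whole blood, fewer cells of a type and less RNA per cell cannot be told apart.

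Each sample was measured as 1 RNAseq library, and a value is either a read count per gene or CPM, the gene's count scaled to a common library size after TMM normalization. At 48 h the 7 libraries held between 21628542 and 27496205 counts on genes, with a median of 24663156. At 72 h they held between 19940641 and 34734616, with a median of 22084819. A count of 3 in a library equals 0.0864 to 0.15 CPM, which covers counting error only. Of 24616 genes listed, 5234 had no count in any of the 14 libraries and 12792 passed the filter on low counts, and these 12792 held 99.93% of the counts. Genes are known here by Ensembl identifier. The files do not pair identifiers with symbols, so members of pathways were not counted, and the labelled tissue was not checked against blood cell markers. Calves 4 and 5 stood apart from the other CL calves in the make-up of their libraries, as described further on. The counts of DEG, the breed differences, the sets fixed in other breeds, the shares of counts and the 4 genes given in full are reported with and without them.

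The step from 48 h to 72 h in CL calves was mostly one of rising genes. There were 625 differentially expressed genes (DEG), which is 4.89% of those tested. To be counted, a gene had to pass edgeR's quasi-likelihood test with calf as a block at 0.05 after Benjamini-Hochberg adjustment and to change at least 1.5-fold. Of these, 529 (4.14%) were higher at 72 h and 96 (0.75%) were lower, so 84.6% of the DEG were higher. Without the fold threshold 2122 genes passed the test, of which 1269 were higher and 853 lower (59.8% higher). The excess of rises therefore lay in the larger changes, since among genes that passed the test with under 1.5-fold change 740 were higher and 757 were lower. The median log2 fold change of all genes tested was -0.003.

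The count of DEG rested on comparing each calf with itself. Without the calf as a block edgeR called 1 gene, although 2864 genes had an unadjusted p under 0.05, and DESeq2 called 728 genes with the block and 358 without it. Leaving out calf 2, calf 3 or calf 4 reduced the count to 357, 234 or 391, and leaving out both calves 4 and 5 reduced it to 203 (172 higher, 1.34%, and 31 lower, 0.242%). The share of higher DEG was 87.1, 84.6, 84.9 and 84.7% in these. The labels carry an L number for each library whose meaning is not stated, and calf 3 alone had the same L number at both ages. With all 88 samples in the fit and the L number as a covariate 2 genes were called, against 49 in the same fit without the L number.

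**Figure D1:**
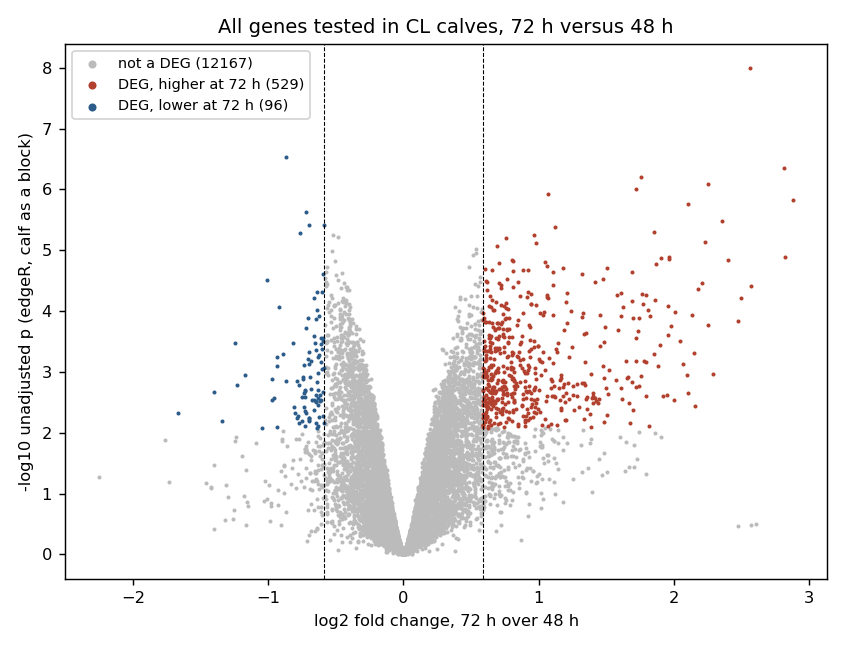
Each point is 1 of the 12792 genes tested in the 7 CL calves, by its log2 fold change at 72 h over 48 h (x axis) and the −log10 of its unadjusted p by edgeR with calf as a block (y axis). Dashed lines mark a 1.5-fold change. The 529 DEG higher at 72 h reach a log2 fold change of 2.88, and the 96 lower DEG reach -1.67.

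The genes that rose did so to a larger extent than those that fell. The 529 higher DEG had a median log2 fold change of 0.84 (1.79-fold), with a median standard error of 0.18. Of them 183 (34.6%) rose at least 2-fold and 24 at least 4-fold. The 96 lower DEG had a median of -0.70 (1.62-fold) with a median standard error of 0.17, of which 8 reached 2-fold and 0 reached 4-fold. These sizes follow in part from the thresholds that chose the genes.

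Most DEG moved the same way in each of the 7 calves. This was so for 342 of the 529 higher genes (64.7%), and a further 174 rose in 6 calves and 13 in 5. Of the 96 lower genes 67 (69.8%) fell in all 7 calves, 27 in 6 and 2 in 5. The test that chose the DEG favours genes that move alike in these calves, so these shares are only a description. Over all genes tested, 1810 (14.1%) moved the same way in 7 calves, 878 upwards (6.86%) and 932 downwards (7.29%), so by this count rises and falls were about as frequent.

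The higher DEG were spread over all levels of expression, and the lower DEG sat among genes of low level. Genes were divided into 4 equal groups of 3198 by mean CPM over the 88 samples. In the lowest group (mean of 0.214 to 5.74 CPM) 6.13% of genes were higher and 2.25% lower. In the next (5.75 to 21.6 CPM) the shares were 4.91% and 0.469%. They were 2.63% and 0.156% in the third group (21.7 to 62.1 CPM), and 2.88% and 0.125% in the group of highest level (from 62.2 CPM). Of the 96 lower DEG, 72 were in the lowest group. The median standard error of the log2 fold change was 0.201 in the lowest group and 0.08 in the highest.

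The higher DEG took up a growing share of the counts at 72 h. Their summed share of all counts on genes in CL calves had a median of 3.07% over calves at 48 h (2.3 to 12.7%). At 72 h the median was 8.38% (3.22 to 28.8%), and the ranges overlapped. The same genes held a median of 2.92% at 0 h and 3.24% at 168 h. The summed share of the lower DEG went from a median of 0.185% (0.161 to 0.224%) to a median of 0.105% (0.0724 to 0.164%). Without calves 4 and 5 the median share of the higher DEG was 2.38% at 48 h (2.3 to 4.49%) and 5.24% at 72 h (3.22 to 10.9%). These shares use the values that chose the genes and are given as a description.

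The gene with the largest rise among DEG that rose in all 7 calves was ENSBTAG00000009076. Its level at 48 h was 0.488, 1.05, 2.66, 10.3, 23.0, 0.517 and 0.755 CPM in calves 1 to 7. At 72 h it was 1.39, 22.4, 17.6, 67.7, 123.7 and 3.08 CPM in calves 1 to 6 and 8.0 CPM in calf 7. Every calf rose, but the calves differed so widely at each age that the ages overlapped, and calves 4 and 5 were highest at both. The mean went from 5.54 ± 8.47 CPM to 34.8 ± 45.2 CPM (SD, n = 7). The log2 fold change was 2.88 with a standard error of 0.26 (7.35-fold, edgeR adjusted p = 0.0024), and the change within a calf ran from 1.39 in calf 1 to 4.34 in calf 2.

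ENSBTAG00000013366 had the next largest rise, and its levels at the 2 ages did not overlap. At 48 h its level in calves 1 to 7 was 0.563, 0.075, 1.49, 1.76, 1.38, 0.323 and 0.189 CPM. At 72 h it was 4.35, 2.56, 15.6, 4.84, 4.45, 2.63 and 3.38 CPM. All 7 calves at 72 h were above the highest calf at 48 h, and calf 3 was far above the others at 72 h. The mean rose from 0.826 ± 0.698 CPM to 5.4 ± 4.57 CPM, a log2 fold change of 2.82 with a standard error of 0.35 (7.06-fold, edgeR adjusted p = 0.0055). The gene was counted only 2 times in calf 2 at 48 h, which is under the 3 counts taken as the limit of a library, so the size of the rise in that calf (4.13 on the log2 scale) is imprecise.

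The 2 largest falls among DEG that fell in all 7 calves were smaller than these rises. ENSBTAG00000047330 was at 7.58, 12.5, 3.93, 13.5, 3.94, 4.71 and 2.98 CPM in calves 1 to 7 at 48 h. At 72 h it was at 3.13, 2.61, 1.92, 2.7, 2.73, 3.05 and 1.86 CPM. The calves spread widely at 48 h and lay close together at 72 h, with calf 7 at 48 h inside the 72 h range. The mean went from 7.02 ± 4.33 CPM to 2.57 ± 0.502 CPM, with a log2 fold change of -1.25 and a standard error of 0.24 (2.38-fold lower, edgeR adjusted p = 0.012). The fall within a calf was steepest in calf 4 (-2.28) and smallest in calf 5 (-0.53).

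ENSBTAG00000018398 was at 12.6, 3.04, 6.74, 7.27, 4.36, 4.84 and 1.7 CPM at 48 h. It was at 5.44, 2.13, 4.63, 2.76, 2.43, 2.01 and 0.656 CPM at 72 h. Calf 1 was highest and calf 7 lowest at both ages, and the ages overlapped. The log2 fold change was -1.01 with a standard error of 0.15 (2.01-fold lower, edgeR adjusted p = 0.0063), and the mean went from 5.79 ± 3.58 CPM to 2.86 ± 1.64 CPM. What these 4 genes encode is not given in the sources used here. All of them stayed DEG when any 1 calf or both calves 4 and 5 were left out, but none of them passed by edgeR without the calf as a block (adjusted p from 0.083 to 0.2), whereas DESeq2 without the block kept ENSBTAG00000013366 and ENSBTAG00000047330. With all 88 samples and the L number only ENSBTAG00000013366 of the 4 was called.

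**Figure D2:**
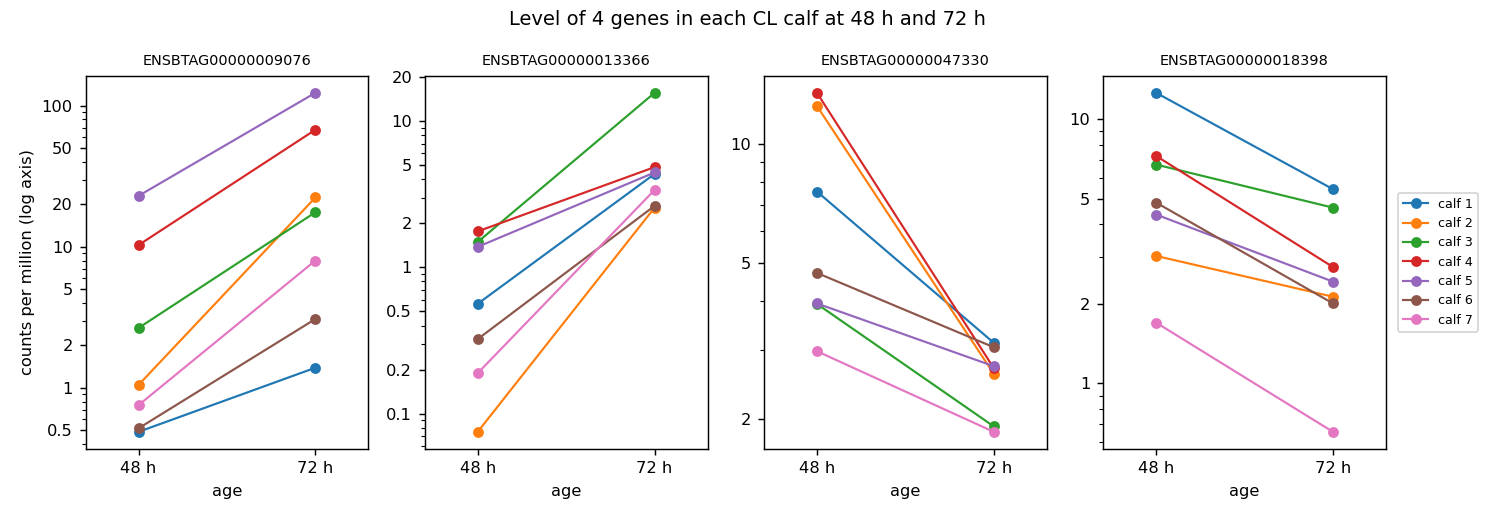
Level in CPM (y axes, log scale, with a scale of its own in each panel) of 4 genes at 48 h and 72 h (x axes), with a line for each of the 7 CL calves. All lines rise for ENSBTAG00000009076 and ENSBTAG00000013366 and all fall for ENSBTAG00000047330 and ENSBTAG00000018398. Only ENSBTAG00000013366 has no overlap between the ages.

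The calves did not take part in the step to the same degree. The median change of the 529 higher DEG was 0.90, 1.10, 0.95, 0.90 and 0.92 on the log2 scale in calves 1 to 5. It was 0.46 in calf 6 and 0.57 in calf 7. In calves 1 to 5, 95.3 to 99.6% of these genes were higher at 72 h, against 85.8% in calf 6 and 89.6% in calf 7. Calf 6 had the smallest change of all 7 calves for 172 of these genes and calf 7 for 158, and calf 2 had the largest change more often than any other calf.

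Calves 6 and 7 also moved least over all genes tested. The share of genes that changed by over 1.5-fold was 10.8% in calf 6 and 12.2% in calf 7, and 15.2 to 24.3% in the other calves. For the 96 lower DEG the median change ran from -0.86 in calf 2 to -0.42 in calf 7. In calf 7, 86.5% of them were lower at 72 h, against 93.8 to 99% in the other calves. Without calf 6 the count of DEG was 833 and without calf 7 it was 726. These values describe the calves whose samples chose the genes and were not tested.

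A few genes held a larger share of the counts at 72 h than at 48 h in every CL calf. The difference did not pass the threshold after adjustment. The 10 most abundant genes of each library held a median of 5.85% of the counts at 48 h (5.31 to 13.99%) and of 9.14% at 72 h (5.44 to 28.53%). This share was higher at 72 h in 7 of 7 calves. The share of reads that mapped to several places, which STAR does not count on genes, had a median of 8.9% at 48 h (7.2 to 17.98%) and of 10.86% at 72 h (7.25 to 24.15%), also higher in 7 of 7 calves. For both measures an exact 2-sided sign-flip permutation test gave p = 0.0156, the smallest that 7 pairs allow, and 0.0546 after Benjamini-Hochberg adjustment over 7 measures. The 10 genes with the largest mean share over the CL libraries of both ages were also taken as a fixed set. In this set, chosen from these same samples, 3 were DEG that rose and 0 were DEG that fell, against 4.14% and 0.75% of all genes. The median log2 fold change of the set was 0.29.

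The dominance of a library by a few genes was largest in calves 4 and 5. Without them the share of the 10 most abundant genes had a median of 5.61% at 48 h and 6.79% at 72 h, and the share of reads mapping to several places 8.54% and 9.58%. The share of the 10 most abundant genes went from 12.01 to 23.51% in calf 4 and from 13.99 to 28.53% in calf 5, whereas in calf 6 it went from 5.31 to 5.44%. At 72 h the leading gene of the library held 17.7% of the counts of calf 4 and 19.7% of those of calf 5, against 0.844 to 5.17% in the other calves. Whether the leading gene was the same in calves 4 and 5 was not recorded. Calves 4 and 5 were the calves with the highest levels of ENSBTAG00000009076. With the fixed set of 10 genes left out of the library sizes the count of DEG was 605. The part of these genes in the other results was not tested further. Counts on genes, the number of genes detected and the share of reads on genes gave an exact p of 1, 0.562 and 0.0938 by the same test, none past the threshold.

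**Figure D3:**
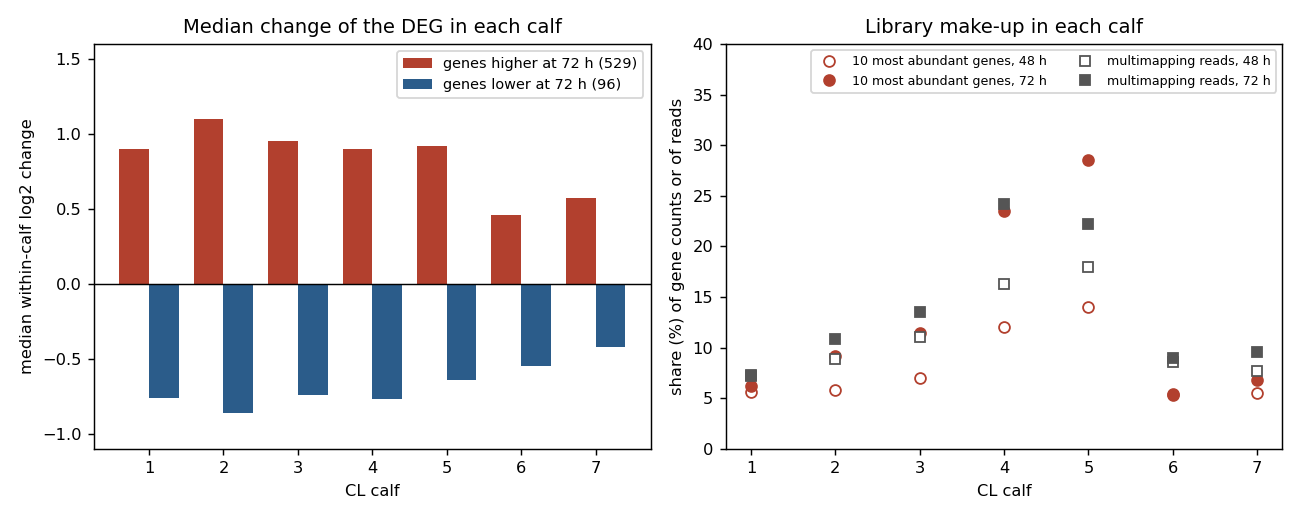
Left, the median within-calf log2 change (72 h minus 48 h, y axis) of the 529 higher and the 96 lower DEG in each CL calf (x axis), as bars from 0. Right, the share in percent (y axis) of gene counts held by the 10 most abundant genes (circles) and of reads that mapped to several places (squares), open at 48 h and filled at 72 h. Calves 6 and 7 have the smallest rises, 0.46 and 0.57, and calves 4 and 5 the highest shares.

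LF calves, which are other animals, were used to follow the same genes in samples that had no part in choosing them. In LF calves 1.23% of genes were DEG between 72 h and 48 h, 138 higher (1.08%) and 19 lower (0.149%). In LF calf 7 at 72 h the 10 most abundant genes held 20.47% of the counts, against a median of 8.75% over LF calves. No LF calf was left out of any fit. Of the 529 higher DEG of CL calves 521 were tested in LF calves, and 455 of these (87.3%) had a log2 fold change above 0, against 49.9% of all genes. Their median log2 fold change was 0.39 in LF calves and 0.82 in CL calves, where the value is inflated because it chose the genes. In LF calves 75 of them were DEG that rose and 0 were DEG that fell. These 75 are 14.2% of the higher DEG of CL calves and 54.3% of those of LF calves, and the shared number fell to 34 without CL calves 4 and 5, to 28 without CL calf 3 and to 0 without the calf as a block. Of the 96 lower DEG of CL calves 95 were tested in LF calves, 89 (93.7%) were below 0, the median was -0.42 and 3 were DEG that fell.

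Most DEG of LF calves, whose choice did not use CL samples, had a log2 fold change of the same sign in CL calves. Of the 138 genes higher in LF calves 137 were tested in CL calves and all but 2 had a log2 fold change above 0, with a median of 0.65 in CL and 1.16 in LF calves, and 75 (54.7%) were DEG in CL calves against 4.14% of all genes. Of the 18 lower LF genes tested in CL calves 15 were below 0, with a median of -0.45, and 3 (16.7%) were DEG against 0.75%. Without CL calves 4 and 5 the medians were 0.71 and -0.50, and 34 of the higher genes (24.8%, against 1.34% of all genes) and 3 of the lower (16.7%, against 0.242%) were DEG.

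H calves had 0 DEG (0%) between 72 h and 48 h by edgeR with calf as a block, with 936 of 12479 genes (7.5%) at an unadjusted p under 0.05 and a smallest adjusted p of 0.13. DESeq2 was not run for that comparison. In H calf 6 the 10 most abundant genes held 48.82% of the counts at 48 h and 51.1% at 72 h. The medians over H calves were 11.3 and 11.7%. No H calf was left out of any fit. The higher DEG of CL calves still had a log2 fold change above 0 in 440 of 519 tested (84.8%, against 48.9% of all genes), with a median of 0.26. Of the lower DEG 61 of 86 (70.9%) were below 0, with a median of -0.16.

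The test of the difference between breeds itself called almost nothing. For the change in CL minus the change in LF calves, 0 of 13256 genes (0%) passed by edgeR, with 1180 (8.9%) at an unadjusted p under 0.05 and a smallest adjusted p of 0.55, and DESeq2 called 5. So the larger number of DEG in CL than in LF calves is not shown to be a difference in the response of single genes. For CL minus H calves 1 of 13131 genes (0.00762%) passed by edgeR, and 43 by DESeq2. Without CL calves 4 and 5 edgeR called 0 genes for CL minus LF, with 557 at an unadjusted p under 0.05, and 2 for CL minus H. Management differed between CL and H calves, and the H calves came from another farm than the beef calves. Breed, farm and management therefore cannot be told apart.

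The gene that passed was ENSBTAG00000013366, 1 of the 4 genes described above. Its log2 change in CL calves exceeded that in H calves by 3.07 with a standard error of 0.41 (edgeR adjusted p = 0.011). In H calves it was at 7.79 ± 3.85 CPM at 48 h and 7.06 ± 4.2 CPM at 72 h (SD, n = 8). In CL calves it was at 0.826 ± 0.698 CPM at 48 h, and the highest CL calf (1.76 CPM) was then below the lowest H calf (3.58 CPM), whereas at 72 h the groups overlapped. LF calves went from 1.53 ± 0.405 CPM to 3.86 ± 2.88 CPM (SD, n = 7), a log2 fold change of 1.11 with a standard error of 0.35 that did not pass (edgeR adjusted p = 0.18). The call in CL minus H calves was lost without CL calf 3 (edgeR adjusted p = 0.061). It held without CL calves 4 and 5, with a difference of 3.73 (edgeR adjusted p = 0.00026), and 2 genes passed without CL calf 2 or without CL calf 4.

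By edgeR with calf as a block, none of the other 3 genes was called for a difference between breeds. ENSBTAG00000009076 changed by 0.84 on the log2 scale (standard error 0.63) in LF calves and by 0.52 (standard error 0.32) in H calves. The difference of CL minus LF was 2.02 (edgeR adjusted p = 0.55) and that of CL minus H was 2.34 (edgeR unadjusted p = 8.7e-05, adjusted p = 0.28). DESeq2 with the block called the latter difference, at 2.33 (adjusted p = 0.00055). ENSBTAG00000047330 changed by -0.49 in LF and -0.33 in H calves, and ENSBTAG00000018398 by -0.52 and -0.66, none of them past the threshold. The breed differences of these falling genes passed neither by edgeR nor by DESeq2 with the block.

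**Figure D4:**
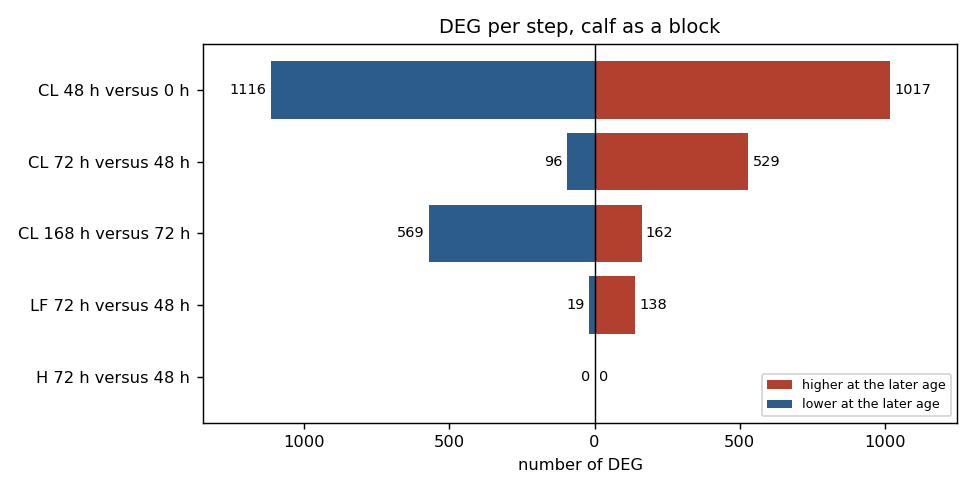
Number of DEG (x axis) that were higher (right of 0) or lower (left of 0) at the later age, for 3 successive steps in CL calves and for 72 h versus 48 h in LF and H calves (y axis), from edgeR with calf as a block. CL calves have 529 higher and 96 lower DEG from 48 h to 72 h, LF calves 138 and 19, and H calves 0 and 0.

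The step from 48 h to 72 h lay between steps of other balance in the same calves. From 0 h to 48 h CL calves had 2133 DEG (16.6%), of which 1017 (7.91%) rose and 1116 (8.68%) fell. From 72 h to 168 h they had 731 (5.72%), of which 162 (1.27%) rose and 569 (4.46%) fell. These comparisons share the 48 h or the 72 h samples with the one reported here, so they are not independent of it and their values are only set side by side. The genes higher at 72 h had a median level over the set of 4.98 CPM at 0 h, 5.51 CPM at 48 h, 10.7 CPM at 72 h and 7.66 CPM at 168 h, taken as the median over calves. The genes lower at 72 h had 2.51, 4.15, 2.63 and 2.6 CPM at the same ages. The median log2 fold change of the higher set was 0.06 from 0 h to 48 h and -0.68 from 72 h to 168 h. For the lower set it was 0.43 and 0.24.

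The 4 genes described above took different courses over the week in CL calves. ENSBTAG00000009076 was at 3.7 ± 5.33 CPM at 0 h and 6.28 ± 9.8 CPM at 168 h, so its highest mean was at 72 h. Its fall from 72 h to 168 h, -2.95 on the log2 scale with a standard error of 1.35, did not pass (edgeR adjusted p = 0.19), and calf 1 was highest at 168 h with 27.0 CPM. ENSBTAG00000013366 was low at 48 h only, with 3.28 ± 1.74 CPM at 0 h and 4.74 ± 2.08 CPM at 168 h. Its change from 0 h to 48 h was -2.20 with a standard error of 0.35 (edgeR adjusted p = 0.001).

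ENSBTAG00000047330 was high at 48 h only, with 1.51 ± 0.47 CPM at 0 h and 2.41 ± 0.78 CPM at 168 h. It rose by 2.04 on the log2 scale from 0 h to 48 h, with a standard error of 0.27 (edgeR adjusted p = 0.00043). ENSBTAG00000018398 had a lower mean at every later age, from 9.78 ± 3.57 CPM at 0 h to 0.951 ± 0.427 CPM at 168 h. Its change from 72 h to 168 h was -1.49 with a standard error of 0.25 (edgeR adjusted p = 0.0077), and that from 0 h to 48 h was -0.92 (edgeR adjusted p = 0.15).

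**Figure D5:**
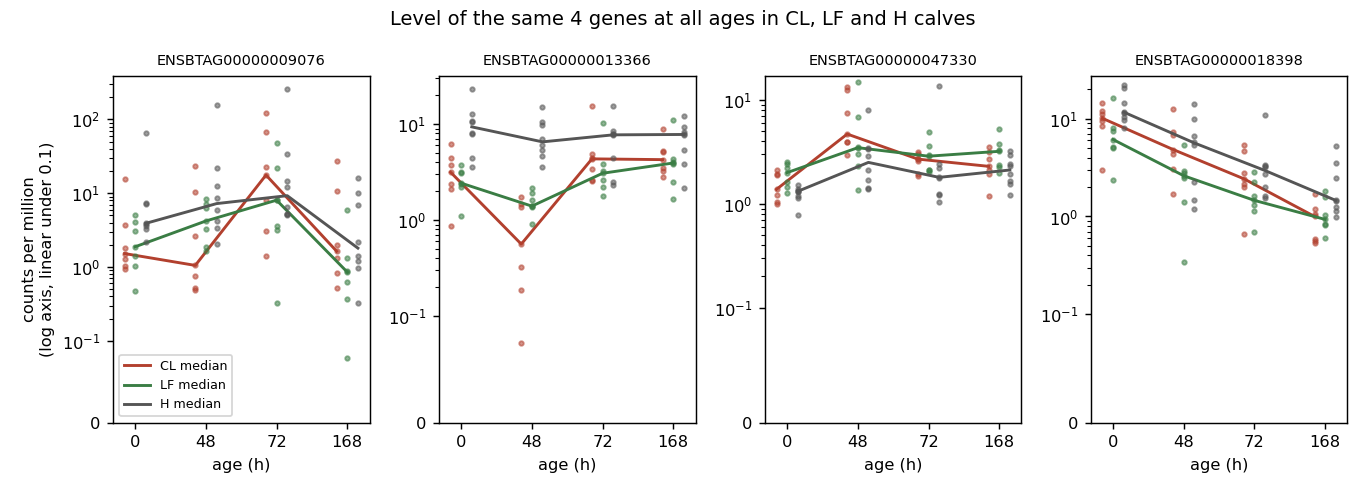
Level in CPM (y axes, log scale, linear under 0.1) of the same 4 genes at 0, 48, 72 and 168 h (x axes) in CL, LF and H calves. Points are single calves and lines join the medians of 7 CL, 7 LF and 8 H calves. The CL median of ENSBTAG00000013366 drops to 0.563 CPM at 48 h, where the H median is 6.54 CPM.

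Groups of genes fixed by LF and H calves alone, at other ages, gave a further description of the step in CL calves. Of genes that were DEG and higher at 48 h than at 0 h in both LF and H calves, 558 were tested in CL calves from 48 h to 72 h. The DEG that rose in that earlier step were 8.31% of all genes in LF and 5.93% in H calves, and those that fell were 6.17% and 5.24%. Their median log2 fold change was 0.39, 80.6% were above 0, and 117 (21.0%, against 4.14% of all genes) were DEG that rose from 48 h to 72 h. A further 11 (1.97%, against 0.75%) were DEG that fell, so both shares were above those of all genes. Genes lower at 48 h than at 0 h in both other breeds (362 tested) had a median of -0.04, with 9 DEG higher (2.49%, against 4.14%) and 4 lower (1.1%, against 0.75%). The 0 h samples used to fix these groups include LF calf 1, with 26.08% of reads on genes and 27.66% unmapped. They also include H calf 6, where the 10 most abundant genes held 38.95% of the counts. Both calves stayed in the fits.

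Genes that fell from 72 h to 168 h in both LF and H calves (468 tested) had a median of 0.30 in CL calves from 48 h to 72 h. Of these 83.1% were above 0, 67 (14.3%, against 4.14% of all genes) were DEG that rose and 4 (0.855%, against 0.75%) were DEG that fell. From 72 h to 168 h, 9.5% of all genes fell in LF and 5.55% in H calves, and 4.22% and 3.44% rose. Genes that rose from 72 h to 168 h in both other breeds (140 genes, of which 6 were not tested in CL calves) had a median of -0.15, with 73.1% below 0, 4 DEG higher (2.99%, against 4.14%) and 0 lower (0%, against 0.75%). Over all genes tested 49.5% were above 0. Without calves 4 and 5 the DEG that rose in CL calves numbered 32 (5.73%) among the genes that had risen by 48 h in both other breeds and 19 (4.07%) among those that fell after 72 h, against 1.34% of all genes. The medians of these groups were then 0.38 and 0.35. Without calf 3 alone the numbers were 46 and 23, and without calf 1 or calf 2 the number in the latter group was 36 or 43. Without the calf as a block both were 0.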

How the data were processed

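The authors trimmed adapters with cutadapt, aligned the single-end reads to the UMD3.1 cattle genome and counted reads per gene with STAR, and deposited the raw read counts for each of the 88 libraries, unstranded and for each strand. Tool names follow the submitters' processing notes and the study's methods, and versions are not given in the sources used here. The counts for 1 of the strands amounted to 50.39 to 50.77% of the unstranded counts, so the unstranded counts were used. Overlapping genes and antisense partners therefore cannot be told apart. Reads that map to several places are not assigned to genes, which lowers the counts of genes that have near-identical copies. The 4 summary rows of each file were left out of the library sizes.

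Groups were taken from the labels. Counts were tested with edgeR 4.0.16 in R 4.3.3 (filterByExpr, TMM, glmQLFit with robust estimation, glmQLFTest) on the 14 CL samples at 48 h and 72 h with calf as a block, and on the 28 or 30 samples of both breeds for the interactions. CPM used TMM library sizes, and within-calf changes used log2 CPM with a prior count of 2. Single values per sample were tested in Python 3.11.15 with scipy 1.17.1 and numpy 2.4.6. The pairing comes from the tag number of the calf in the labels, which was used because 2 CL titles at 48 h carry the same replicate number. Deviations of the same calf from the group means at the 2 ages correlated with a mean r of 0.593 (0.51 to 0.67) over 12792 genes. Each of the 7 calves correlated best with itself. The mean r for different calves was -0.098. That value follows largely from taking deviations from the means of the same calves, so it is not a separate baseline. Among the 91 pairs of the 14 libraries 0 held identical counts, and the chi-square of a pair divided by its degrees of freedom was at least 37.7.

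Genes printed by identifier were chosen by a rule: of the DEG that moved the same way in all 7 calves, the 2 that rose most and the 2 that fell most. The samples, lists and rule were chosen with earlier results of these data known. The RefSeq gene table used here held no Ensembl identifiers, so the identifiers could not be paired with symbols. The planned gene lists, the cell type markers, the naming of genes by symbol and the alternative without haemoglobin genes were therefore not carried out. No sequence is shown. Alternatives were DESeq2 1.42.0 with and without the block, RLE scaling, other filters and fold thresholds, other sets of samples with or without the L number, and the omission of single calves. Simulated counts were used to check edgeR with and without the block, DESeq2 with the block, and the edgeR interaction of CL and LF calves. The interaction of CL and H calves, the other fits and the sign-flip test were not simulated. The precision of low genes is limited by depth. With calf as a block, the p-values of the main test rest on the spread of the within-calf changes over these 7 calves. For each gene edgeR moderates that spread towards a trend over all genes tested.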

Additional observations from a re-analysis of the deposited data

Results flagged for a closer look

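ENSBTAG00000013366 changed differently in CL and H calves from 48 h to 72 h, with a difference of 3.07 on the log2 scale by the edgeR interaction test (adjusted p = 0.011), from 7 CL calves that all rose and H calves with a log2 fold change of -0.24.

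In 4 of 32 groups of 7 CL values examined, 1 calf lay far from the others. By chance about 1 in 20 such groups shows this, and the 4 are all levels of the 2 risen genes on a linear scale. ENSBTAG00000013366 was at 15.6 CPM in calf 3 at 72 h, where the other 6 calves lay between 2.56 and 4.84 CPM, and at 8.96 CPM in calf 2 at 168 h. ENSBTAG00000009076 was at 15.6 CPM in calf 5 at 0 h and at 27.0 CPM in calf 1 at 168 h. Calf 1 had the lowest level of that gene at both 48 h and 72 h, 0.488 and 1.39 CPM. The 10 most abundant genes held 9.92% of the counts of calf 5 at 0 h and 13.28% of those of calf 1 at 168 h. Each was the highest share among CL calves of that age. For the flagged values of ENSBTAG00000013366 the shares were 11.46% (calf 3, 72 h) and 9.16% (calf 2, 168 h), neither the highest of its age. A link between these shares and the levels was not tested.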

How the results depend on the processing

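The number of DEG between 48 h and 72 h in CL calves moved widely from 625. Higher DEG outnumbered lower ones in the alternatives with more than 2 DEG, and with 1 or 2 DEG the balance cannot be read. Without the calf as a block it was 1 by edgeR and 358 by DESeq2. It was 2122 with no fold threshold, 16 by a test against a 1.5-fold change, 383 with all 28 CL samples in the fit, 2 with all 88 samples and the L number, and 282 without calves 3 and 7, each of which has a library marked R in the labels. Chosen after seeing the data, the fit of all 88 samples without the L number gave 49 and the fit without calves 4 and 5 gave 203. Leaving out 1 calf gave 234 (without calf 3) to 833 (without calf 6), with 357 without calf 2 and 391 without calf 4. RLE scaling gave 624, DESeq2 with the block 728, no filter 553, and at least 10 counts in every sample 515. The omission of the fixed set of 10 abundant genes from the library sizes gave 605. The alternative without haemoglobin genes was not run for want of gene symbols. For CL minus LF calves DESeq2 gave 5 in place of 0, and leaving out 1 CL calf 0 to 0. For CL minus H calves it was 0 in place of 1 without the block and 43 by DESeq2, and leaving out 1 CL calf gave 0 (without calf 3) to 2 (without calf 2 or 4). Without CL calves 4 and 5, chosen after seeing the data, it was 2. No direction of the 4 named genes reversed. For 72 h versus 48 h, ENSBTAG00000013366 lost its call only without the block by edgeR, and was not tested under the filter of at least 10 counts. With all 88 samples and the L number the adjusted p was 0.34 for ENSBTAG00000009076, 0.18 for ENSBTAG00000047330 and 0.44 for ENSBTAG00000018398, and without the L number 0.054 for the first and 0.16 for the last. DESeq2 without the block gave 0.081 and 0.12 for these. ENSBTAG00000018398 was also lost with all 28 CL samples (0.07), and against a 1.5-fold change the falling genes gave 0.36 (ENSBTAG00000047330) and 0.29. The number of higher DEG shared with LF calves, 75, was 30 without calves 3 and 7, 49 with all 28 CL samples, 4 with all 88 samples, 1 with the L number added, and 0 against a 1.5-fold change. The causes of these differences were not tested. Depth limits genes near 0.15 CPM or below.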
